A study of Mus musculus with 9 samples.

Results

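Nutrient carriers of 8 solute carrier families were followed across the adult mouse uterus after neonatal tamoxifen and adult primidone. The members are every gene whose symbol begins with Slc2a, Slc5a, Slc6a, Slc7a, Slc15a, Slc16a, Slc37a or Slc38a and a digit, without Slc2a1 and Slc16a3. They number 86 of the 18094 genes in the count table. The symbol rule also takes in Slc7a6os, a gene named for its position opposite Slc7a6 that does not encode a carrier. The rule uses symbols only, though it was set with earlier results of these data known.

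RNA from the whole uterus of female mice was sequenced at 13 weeks of age, in 9 libraries, 3 per group. Tamoxifen, a selective estrogen receptor modulator, was fed at 1 mg/kg on days 1 to 5 of life in a fatty solvent, and in this design serves to produce adenomyosis, the growth of endometrium into the muscle of the uterus. The tamoxifen group received tamoxifen as newborns and vehicle injections as adults. The tamoxifen+primidone group received the same neonatal tamoxifen and then the anticonvulsant primidone by intraperitoneal injection, at 2 mg/kg per day from week 10 for 3 weeks. The control group received the solvent without tamoxifen as newborns and vehicle injections as adults, so all 3 groups were both fed and injected. The labels give neither the stage of the estrous cycle nor the litters, and no group received primidone without tamoxifen.

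Solute carriers move small polar nutrients across membranes that these molecules cannot cross unaided. Slc2a members let hexoses pass down their gradient, while many Slc5a members pull glucose, inositol, vitamins or short-chain monocarboxylates inward with sodium. Slc7a and Slc38a members, with some Slc6a members, carry amino acids, and several Slc7a members are light chains that pair with a heavy chain such as Slc3a2. Slc15a members carry small peptides with protons. Some Slc16a members carry lactate, pyruvate and related acids, and Slc37a members serve sugar phosphates of the endoplasmic reticulum. In the uterus such carriers supply the lining, the muscle and the fluid that bathes an embryo.

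The libraries held 36393120 to 39958443 counts. Of the 86 members, 69 passed the filter on low counts and were tested, among 15186 tested genes. The other 17 had 1 to 52 counts over all 9 libraries. Markers of the expected tissue were well covered: all 12 epithelial, 10 smooth muscle and 8 stromal markers were tested. Their summed levels, in CPM (counts scaled to the same library size), spanned 4058 to 5979 for epithelium, 5917 to 12121 for smooth muscle and 6376 to 8445 for stroma. In a whole organ, fewer cells of a type and less RNA per cell cannot be told apart.

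Promoters are shown for 4 carriers that passed the test in the comparison of tamoxifen+primidone with control libraries, in pairs that changed the same way. They are the 250 bases before the RefSeq start of each gene, on the gene's own strand, in build GRCm38.p6. Slc15a1 (chr14:121505255-121505504, minus strand) and Slc15a4 (chr5:127617393-127617642, minus strand) are peptide carriers and both rose. Slc37a1 (chr17:31295974-31296223, plus strand) and Slc16a12 (chr19:34747329-34747578, minus strand) both fell. Capitals mark the E-box CACGTG, a motif read the same on both strands.
Slc15a1: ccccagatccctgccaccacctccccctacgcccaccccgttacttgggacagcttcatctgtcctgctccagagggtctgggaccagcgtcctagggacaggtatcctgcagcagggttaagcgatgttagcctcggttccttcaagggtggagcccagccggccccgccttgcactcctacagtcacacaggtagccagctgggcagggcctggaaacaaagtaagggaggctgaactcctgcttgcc
Slc15a4: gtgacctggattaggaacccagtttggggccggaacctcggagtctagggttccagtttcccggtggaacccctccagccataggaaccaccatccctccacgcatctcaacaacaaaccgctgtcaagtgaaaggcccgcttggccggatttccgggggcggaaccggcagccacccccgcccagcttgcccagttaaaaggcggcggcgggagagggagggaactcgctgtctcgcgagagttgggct
Slc37a1: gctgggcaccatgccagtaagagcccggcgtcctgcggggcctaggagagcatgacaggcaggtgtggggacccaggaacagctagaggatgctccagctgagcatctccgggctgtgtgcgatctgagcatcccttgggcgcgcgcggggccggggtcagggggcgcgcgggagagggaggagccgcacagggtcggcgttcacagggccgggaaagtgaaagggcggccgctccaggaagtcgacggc
Slc16a12: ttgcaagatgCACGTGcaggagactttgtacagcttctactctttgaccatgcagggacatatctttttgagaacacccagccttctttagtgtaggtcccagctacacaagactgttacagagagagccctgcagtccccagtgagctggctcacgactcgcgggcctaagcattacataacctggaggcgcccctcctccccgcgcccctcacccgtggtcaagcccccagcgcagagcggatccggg

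The sequence of Slc16a12 holds a single E-box, and the other 3 hold none in this window. The AP-1 motif TGANTCA, searched on both strands and not overlapping with the E-box, is in none of the 4. Over all 32851 RefSeq promoters of this length, 6.02% held the E-box and 6.75% the AP-1 motif. RefSeq promoters were found for 63 of the 86 members, and 9 of their 86 promoters (10.5%) held each motif. The Slc37a1 promoter had 21 CpG sites and 69.6% GC, against 7 CpG sites and 62% GC for Slc15a1, 17 and 62.8% for Slc15a4, and 11 and 57.6% for Slc16a12. The median over all promoters was 6 CpG sites and 52.4% GC, and over the promoters of the members 8 CpG sites and 58.4% GC. The part of this base composition in the motif shares was not tested.

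Levels of different genes were compared in FPKM, which corrects for gene length. Of 86 members, 13 had a mean of at least 10 FPKM over the 9 libraries, 36 lay from 1 to under 10, 18 from 0.1 to under 1, and 19 under 0.1. The 5 highest together held 36.3% of the members' summed mean FPKM and the 13 highest held 64.6%.

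Slc38a2, a sodium-coupled carrier of small neutral amino acids, led at 48.2 FPKM, with every library between 40.6 and 58.8. Its relative Slc38a10 was next at 31 FPKM, in a narrow band from 28.9 to 32.2. The proton-linked lactate and pyruvate carrier Slc16a1 stood at 25.4 FPKM (17.4 to 31.5) and the peptide carrier Slc15a2 at 21.9 FPKM (16.1 to 27.7). The range of Slc38a2 lay above all 3. Over all 9 libraries the range of Slc16a1 overlapped that of Slc38a10 above it and that of Slc15a2 below it. These ranges pool the 3 groups. In tamoxifen+primidone libraries Slc16a1 (20.1, 17.4 and 25.6 FPKM) lay below Slc38a10 (30.5, 31.7 and 32.2 FPKM), while they overlapped in the other groups. Slc16a1 and Slc15a2 overlapped in each group, although Slc16a1 was the higher in every tamoxifen library. The taurine carrier Slc6a6 (18 FPKM, 15.9 to 20.6) and the cationic amino acid carrier Slc7a1 (17 FPKM, 11.8 to 21.6) overlapped as well, with Slc7a6os between them at 17.5 FPKM. Further down stood Slc37a3 at 14.3 FPKM (13.6 to 14.8) and the creatine carrier Slc6a8 at 12.5 (10.9 to 14).

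The highest members of the sugar families were lower. Among Slc2a members the insulin-responsive glucose carrier Slc2a4 led at 7.13 FPKM and the intracellular Slc2a8 followed at 5.19. Among Slc5a members the sodium-coupled sugar carriers Slc5a9 and Slc5a1 stood side by side at 9.25 and 9.24 FPKM. The excluded glucose carrier Slc2a1, at 17.8 FPKM, was thus above every retained Slc2a member. Slc37a1, an exchanger of glucose 6-phosphate and phosphate, had 6.27 FPKM, and Slc15a3, a lysosomal peptide and histidine carrier, had 4.42.

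**Figure D1:**
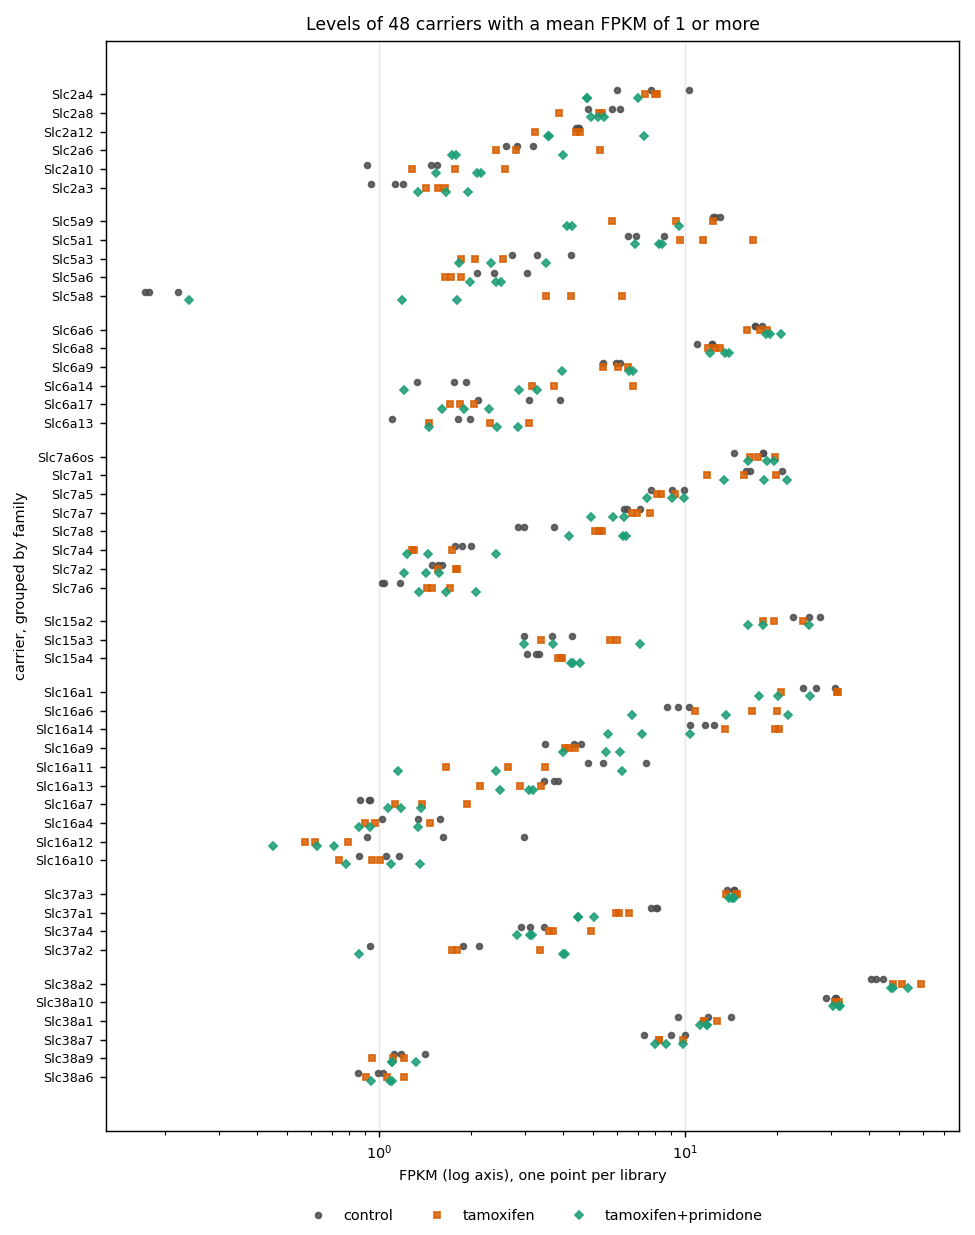
FPKM on a log axis for 48 of the 49 members with a mean of 1 FPKM or more, 1 point per library, colored by group and set apart by family. Slc38a2 lies highest, from 40.6 to 58.8 FPKM, and Slc5a8 spans the widest range of levels.

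The comparison of tamoxifen with control libraries asks how neonatal tamoxifen alone altered the adult uterus. Slc5a8, which takes up short-chain fatty acids, lactate and pyruvate with sodium, was the single carrier past the edgeR test, and rose 24.4-fold. Several abundant carriers differed little between the groups: Slc38a10, Slc37a3, Slc6a6, Slc6a8 and Slc7a5 each had a log2 fold change between −0.06 and 0.08. With edgeR, 1 of 69 carriers was higher, where 0.573% of all tested genes were, and 0 were lower, where 0.961% of all tested genes were. At an unadjusted p under 0.05, 15 carriers were higher (21.7%, against 8.82% of all tested genes) and 5 lower (7.25%, against 8.95%). DESeq2 called 9 carriers higher and 3 lower, beside 540 higher and 603 lower over all tested genes. With limma-voom 0 carriers were called, beside 51 higher and 122 lower over all tested genes. The median log2 fold change of the 69 carriers was 0.08, beside 0.00 over all tested genes. Of the 69, 43 were positive (62.3%, against 50% of all tested genes).

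Slc5a8 stood at 0.941, 1.18 and 0.971 CPM in the control libraries and at 23.2, 33.2 and 19 CPM in the tamoxifen libraries. In the tamoxifen+primidone libraries it stood at 1.22, 9.22 and 6.21 CPM. All tamoxifen libraries lay above all others, and tamoxifen+primidone 1 came close to the controls. The log2 fold change of tamoxifen against control was 4.61 ± 0.66 (SE, n = 3; edgeR adjusted p = 0.0236). The call was lost with limma-voom (adjusted p = 0.0586) and without control 1 (edgeR adjusted p = 0.0928), control 2 (0.0733), control 3 (0.108) or tamoxifen 1 (0.0569).

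The 4 carriers with the next smallest p missed the threshold. Slc38a5, a glutamine and glycine carrier, stood at 0.418, 0.669 and 0.297 CPM in control and at 3.16, 1.02 and 3.35 CPM in tamoxifen libraries. The groups did not overlap, and its log2 fold change was 2.44 ± 0.54 (edgeR adjusted p = 0.0525). Slc7a8, a light chain that carries large neutral amino acids, stood at 29.6, 22.2 and 23.8 CPM in control and at 40.5, 41.8 and 41.5 CPM in tamoxifen libraries. All 3 tamoxifen libraries again lay above the controls, with a log2 fold change of 0.71 ± 0.16 (edgeR adjusted p = 0.0535). Slc37a1 stood at 71.9, 73.1 and 75.9 CPM in control and at 56.6, 54.5 and 60.7 CPM in tamoxifen libraries. Here the tamoxifen libraries were the lower ones, at a log2 fold change of −0.36 ± 0.08 (edgeR adjusted p = 0.0536). Slc15a1, the high-capacity peptide carrier known from the gut, had 0.34, 0.937 and 0.216 CPM in control and 3.72, 2.95 and 2.81 CPM in tamoxifen libraries (log2 fold change 2.66 ± 0.65, edgeR adjusted p = 0.0787).

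Ranges of the 3 libraries per group did not overlap for 15 carriers that were above the controls (21.7%, against 12.7% of all tested genes) and for 9 that were below (13%, against 13.4%). By role, carriers above the controls came from most classes. Slc38a2, the most abundant carrier, stood at 200, 190 and 214 CPM in control and at 228, 240 and 279 CPM in tamoxifen libraries (log2 fold change 0.31 ± 0.10, edgeR adjusted p = 0.138). Slc16a7, a high-affinity pyruvate carrier, had a log2 fold change of 0.70 ± 0.18 (adjusted p = 0.09), and Slc2a3, a high-affinity glucose carrier, one of 0.49 ± 0.17 (adjusted p = 0.174). All 3 inositol carriers had negative log2 fold changes, with Slc5a3 at −0.68 ± 0.26 (adjusted p = 0.22). Slc2a13 was nearly level at −0.02 ± 0.21, and Slc5a11, at −1.17 ± 1.79, was widely spread between libraries. Slc5a3 shares exons on the same strand with Mrps6, so its counts are uncertain. Slc6a4, the serotonin carrier, had 0.575, 0.91 and 0.351 CPM in control and 2.77, 1.08 and 1.64 CPM in tamoxifen libraries (1.57 ± 0.53, adjusted p = 0.159).

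Marker lists of other cell types were read in the same libraries. All 12 liver markers had positive log2 fold changes in tamoxifen against control, with sums of 118 to 256 CPM against 72 to 97.7 CPM. Of these liver markers 4 passed with edgeR as higher, Alb, Apoa1, Ttr and Ahsg, while DESeq2 called 7 higher and limma-voom 1. The 4 tested ovary and oviduct markers summed to 64.4 to 272 CPM in tamoxifen, 16.6 to 47.8 CPM in control and 4.33 to 8.63 CPM in tamoxifen+primidone libraries. Of these 4, 2 had positive and 2 negative log2 fold changes in tamoxifen against control, with a median of −0.52. Of 10 smooth muscle markers 9 were negative (median −0.46), with sums of 6297 to 7577 CPM against 7561 to 12121 CPM. With edgeR 0 of them passed, 5 were lower at an unadjusted p under 0.05, DESeq2 called 5 lower and limma-voom 0. All 6 tested neutrophil markers were positive too, with sums of 60.3 to 69.9 CPM against 16 to 43.9 CPM. All 8 adipocyte markers were positive, with sums of 48 to 259 CPM against 35.2 to 41.5 CPM. Only 7 of 8 neutrophil and 7 of 8 ovary and oviduct markers were among the 18094 genes counted. No marker of these 5 lists found there, tested or not, was at 0 in every library. Their part in the carrier differences was not tested.

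**Figure D2:**
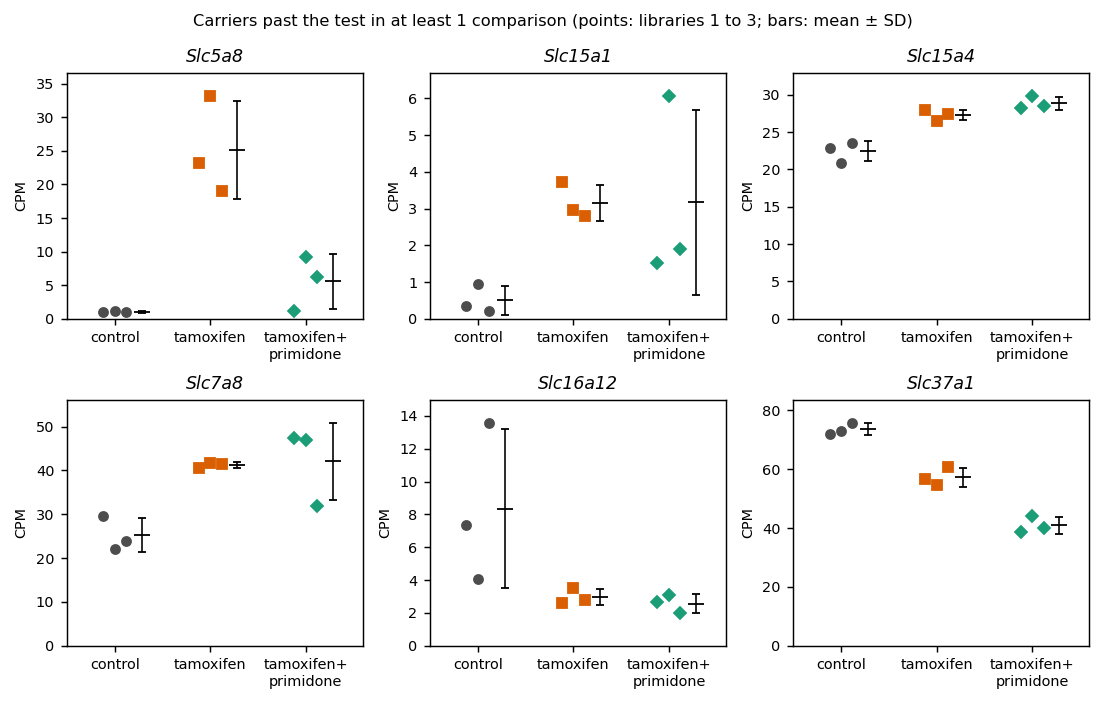
CPM per library for the carriers that passed the edgeR test in a comparison, with control, tamoxifen and tamoxifen+primidone libraries as points beside bars for the mean ± SD of 3 libraries. Slc5a8 lies between 19 and 33.2 CPM in tamoxifen libraries and at or under 1.18 CPM in control libraries.

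The comparison of tamoxifen+primidone with tamoxifen libraries asks what primidone changed in uteri exposed to neonatal tamoxifen. No carrier passed the edgeR test in either direction. Those with the smallest p were all lower with primidone: Slc37a1, the monocarboxylate-family member Slc16a14, the glucose carrier Slc5a1, Slc5a8 and Slc7a7, a light chain for cationic and large neutral amino acids. Of 69 carriers 0 were higher, where 0% of all tested genes were, and 0 lower, where 0.0132% were. At an unadjusted p under 0.05, 1 carrier was higher (1.45%, against 6.3% of all tested genes) and 12 were lower (17.4%, against 7.51%). DESeq2 called 4 carriers lower, namely Slc16a14, Slc37a1, Slc5a1 and Slc5a8, beside 370 lower and 209 higher over all tested genes. With limma-voom 0 carriers were called. The median log2 fold change was −0.03 beside 0.02 over all tested genes. Of 69 carriers 38 were negative and 31 positive (44.9% positive, against 52.8% of all tested genes).

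Slc37a1 stood at 56.6, 54.5 and 60.7 CPM in tamoxifen and at 38.7, 44.2 and 40 CPM in tamoxifen+primidone libraries. The groups did not overlap (log2 fold change −0.48 ± 0.08, edgeR adjusted p = 0.0693). Slc16a14, whose substrate is not settled, stood at 122, 79.8 and 117 CPM in tamoxifen and at 31.2, 58.8 and 41.6 CPM in tamoxifen+primidone libraries. The control libraries, at 62.4, 68.2 and 75.3 CPM, lay between the 2 groups (−1.28 ± 0.23, edgeR adjusted p = 0.0881). Slc5a1 stood at 38.8, 65.8 and 45.9 CPM in tamoxifen and at 25.6, 31.2 and 32.4 CPM in tamoxifen+primidone libraries (−0.75 ± 0.19, edgeR adjusted p = 0.153). Its control libraries, at 27.9, 33.7 and 26.3 CPM, overlapped the tamoxifen+primidone libraries. Slc7a7 stood at 23.7, 25.6 and 22.7 CPM in tamoxifen and at 18.4, 20.1 and 16 CPM in tamoxifen+primidone libraries (−0.40 ± 0.11, edgeR adjusted p = 0.183). For Slc5a8, with library values as above, the log2 fold change was −2.18 ± 0.57 (edgeR adjusted p = 0.178), and it passed when tamoxifen+primidone 1 was left out (−1.71, edgeR adjusted p = 0.0283).

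Ranges did not overlap for 5 carriers that were above tamoxifen (7.25%, against 8.08% of all tested genes) and for 11 that were below (15.9%, against 8.55%). Among the latter, Slc6a14, a broad carrier of neutral and cationic amino acids, had 11.1, 23.3 and 13 CPM in tamoxifen and 3.96, 9.52 and 11 CPM in tamoxifen+primidone libraries (−0.95 ± 0.39, edgeR adjusted p = 0.326). Its control libraries had 4.68, 6.05 and 6.8 CPM (tamoxifen against control 1.44 ± 0.40, edgeR adjusted p = 0.107). Slc37a4, the glucose 6-phosphate carrier of the endoplasmic reticulum, had 10.8, 14.4 and 11 CPM in tamoxifen and 8.61, 8.84 and 8.07 CPM in tamoxifen+primidone libraries (−0.50 ± 0.16, adjusted p = 0.207). Slc2a4 had 23.7, 25 and 25.7 CPM in tamoxifen and 14.3, 21.2 and 14.7 CPM in tamoxifen+primidone libraries (−0.57 ± 0.21, adjusted p = 0.278). Its controls, from 18.8 to 33.3 CPM, were spread over both groups. The comparisons of tamoxifen with control and of tamoxifen+primidone with tamoxifen share the tamoxifen libraries, so a high tamoxifen library moves both in opposite directions.

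Epithelial markers moved in the same comparison. Of the 12 epithelial markers, 11 had negative log2 fold changes (median −0.38). With edgeR 0 of them passed, 9 were lower at an unadjusted p under 0.05, DESeq2 called 6 lower and limma-voom 0. Their sums were 4058 to 4795 CPM in tamoxifen+primidone, 5679 to 5979 CPM in tamoxifen and 5457 to 5875 CPM in control libraries. Among other lists, all 12 liver (median 0.71) and all 8 adipocyte markers (median 0.29) were positive. All 6 tested neutrophil markers were negative (median −0.58). With edgeR 0 of these other markers passed, while DESeq2 called 3 liver markers higher. Of 8 stromal markers DESeq2 called 3 higher and 1 lower. The part of these markers in the lower carrier values was not tested.

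**Figure D3:**
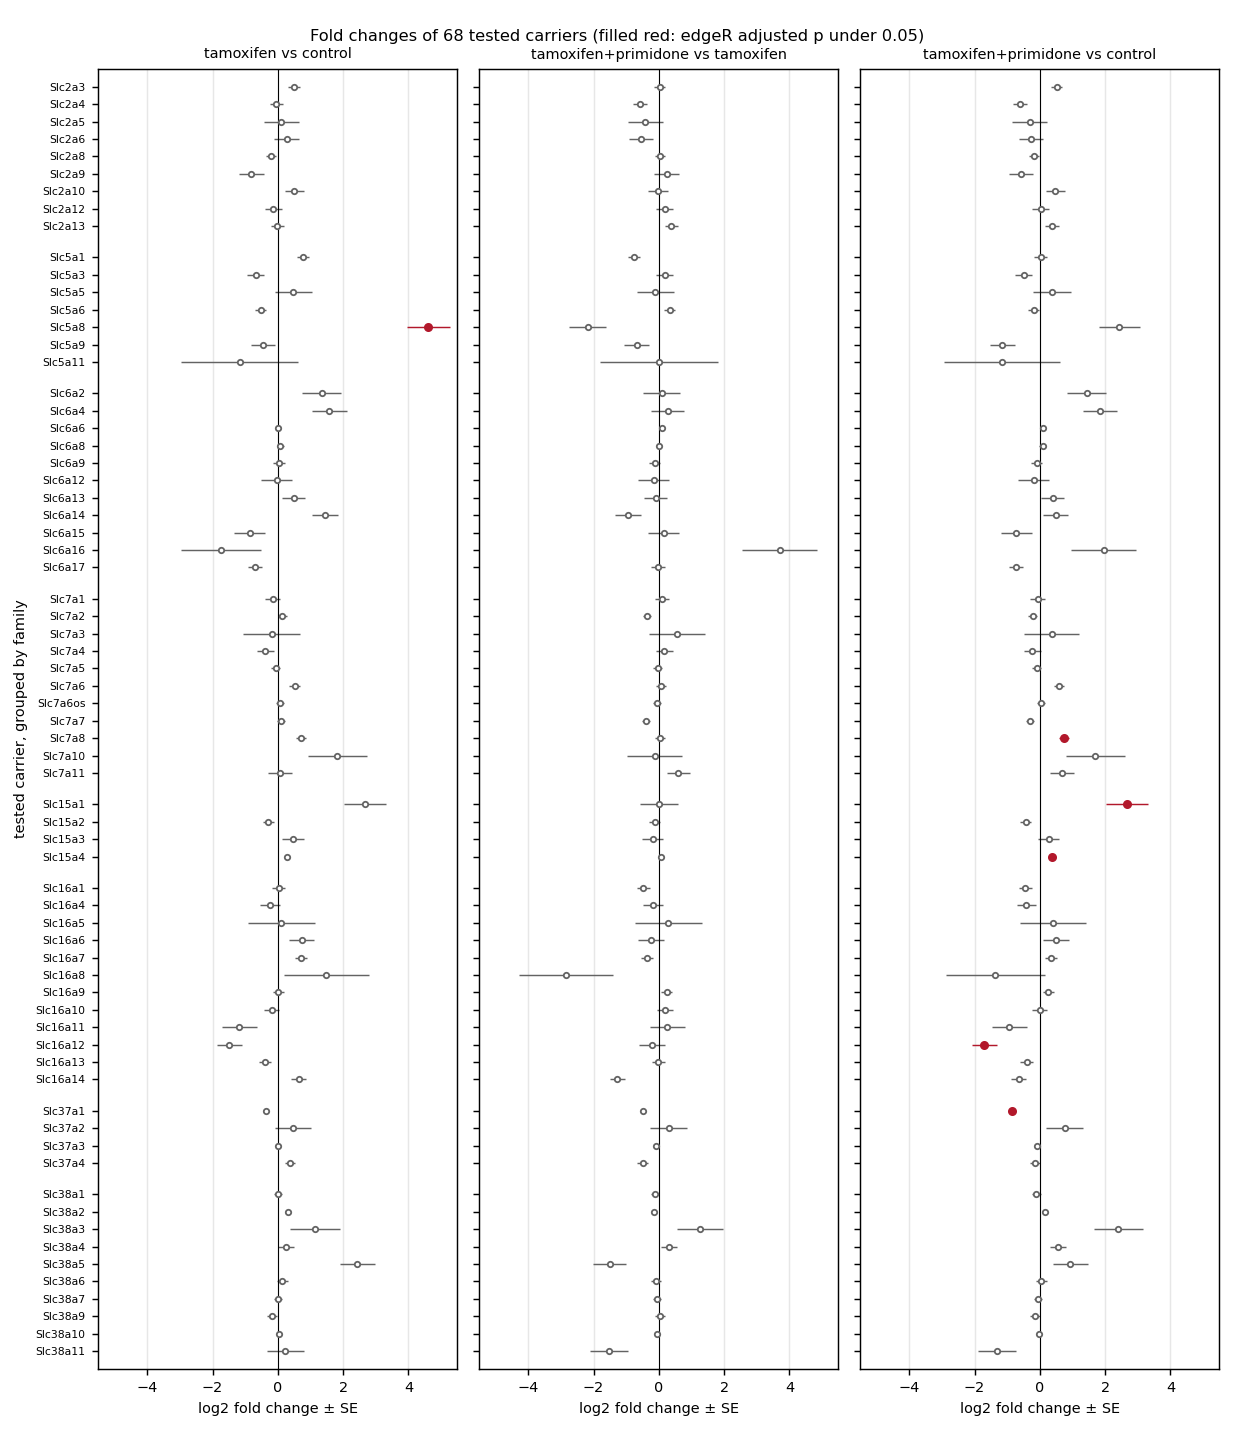
Log2 fold changes of 68 of the 69 tested carriers by family, for each of the 3 comparisons, as points with bars of 1 SE and red points for an edgeR adjusted p under 0.05. Slc5a8 is the far point of tamoxifen against control at 4.61, and most carriers lie near 0 in each comparison.

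**Figure D4:**
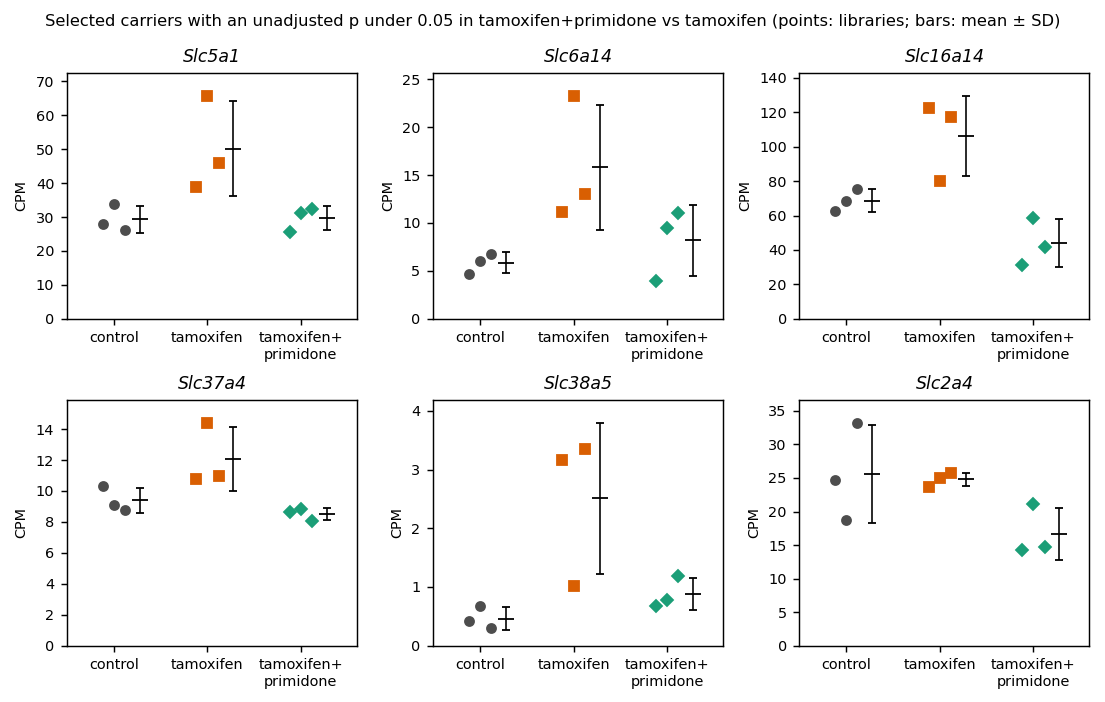
CPM per library for 6 of the 13 carriers with an unadjusted p under 0.05 in tamoxifen+primidone against tamoxifen, as points beside the mean ± SD of 3 libraries. Slc16a14 runs from 79.8 to 122 CPM in tamoxifen and from 31.2 to 58.8 CPM in tamoxifen+primidone libraries.

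The comparison of tamoxifen+primidone with control libraries sets both drugs against neither. The peptide carriers Slc15a1 and Slc15a4 and the amino acid light chain Slc7a8 rose, and the sugar phosphate exchanger Slc37a1 and the creatine carrier Slc16a12 fell. Slc15a1 rose 6.34-fold from a very low level, Slc7a8 rose 1.67-fold and Slc15a4, a lysosomal carrier of peptides and histidine, rose 1.29-fold. Slc37a1 was 1.8-fold lower. With edgeR, 3 of 69 carriers were higher (4.35%, against 2.14% of all tested genes) and 2 were lower (2.9%, against 3.21%). At an unadjusted p under 0.05, 11 carriers were higher (15.9%, against 11.3%) and 10 lower (14.5%, against 11.9%). The median log2 fold change was −0.01, beside 0.01 over all tested genes, and 34 of 69 were positive (49.3%, against 51.7%).

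In Slc37a1 the control libraries stood at 71.9, 73.1 and 75.9 CPM and the tamoxifen+primidone libraries at 38.7, 44.2 and 40 CPM. The tamoxifen libraries, from 54.5 to 60.7 CPM, filled the gap, so that the 3 groups did not overlap anywhere. The log2 fold change was −0.84 ± 0.08 (n = 3, edgeR adjusted p = 0.0015). The gene passed in all 19 alternative settings, with an adjusted p of at most 0.0113. A pseudogene lies opposite its exons in the annotation, and the counts do not say on which strand reads lay. Other genes also lie opposite exons of further named carriers, among them Slc15a3, Slc15a4, Slc16a7, Slc38a10, Slc6a6 and Slc7a7.

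Slc7a8 stood at 29.6, 22.2 and 23.8 CPM in control and at 47.4, 47 and 31.9 CPM in tamoxifen+primidone libraries. Tamoxifen+primidone 3 lay just above the highest control (log2 fold change 0.74 ± 0.16, edgeR adjusted p = 0.029). Slc15a4 stood at 22.9, 20.9 and 23.6 CPM in control and at 28.2, 29.9 and 28.4 CPM in tamoxifen+primidone libraries. Its groups were tight and did not overlap (0.36 ± 0.09, edgeR adjusted p = 0.0426). Slc15a1 stood at 0.34, 0.937 and 0.216 CPM in control and at 1.53, 6.08 and 1.91 CPM in tamoxifen+primidone libraries (2.67 ± 0.65, edgeR adjusted p = 0.0459). Tamoxifen+primidone 2 was the high library, and without it the log2 fold change was 1.78. Slc16a12 stood at 7.34, 4.07 and 13.6 CPM in control and at 2.66, 3.07 and 1.96 CPM in tamoxifen+primidone libraries (−1.70 ± 0.39, edgeR adjusted p = 0.0388). Control 3 was far above the other controls, and without it the log2 fold change was −1.15 (edgeR adjusted p = 0.116).

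These calls other than Slc37a1 were near the threshold. Slc15a4 was lost when any 1 of the 9 libraries was left out (edgeR adjusted p up to 0.13). Slc15a1 was lost without control 1, control 3, any 1 tamoxifen library, tamoxifen+primidone 2 or tamoxifen+primidone 3 (up to 0.157). Slc7a8 was lost without any 1 control library, tamoxifen+primidone 1 or tamoxifen+primidone 2. Slc16a12 was kept without control 2 or tamoxifen 2 and lost without each of the other 7 libraries. Each of these calls was lost with only the 2 groups in the fit (edgeR adjusted p from 0.0602 for Slc7a8 to 0.0866 for Slc15a1). With limma-voom Slc15a1 (adjusted p = 0.0827) and Slc16a12 (0.0858) were lost, and Slc15a4 (0.0449) and Slc7a8 (0.0372) kept. DESeq2 kept each of them.

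Ranges did not overlap for 13 carriers above the controls (18.8%, against 14.1% of all tested genes) and for 7 below (10.1%, against 15.1%). Slc38a3, a glutamine carrier, had 0.0784, 0.321 and 0.0809 CPM in control and 0.646, 1.22 and 0.704 CPM in tamoxifen+primidone libraries (2.40 ± 0.75, edgeR adjusted p = 0.0902). Slc5a8 did not pass here, with a log2 fold change of 2.43 ± 0.63 (edgeR adjusted p = 0.0608). Slc7a6, a light chain for cationic amino acids, had 15.5, 13.4 and 13.5 CPM in control and 16.6, 20.6 and 26.3 CPM in tamoxifen+primidone libraries (0.58 ± 0.16, edgeR adjusted p = 0.0645). Slc5a9 had 58.1, 57.9 and 61.5 CPM in control and 18.7, 18.2 and 43.2 CPM in tamoxifen+primidone libraries (−1.15 ± 0.38, edgeR adjusted p = 0.115). Tamoxifen+primidone 3 kept more of it than the other 2.

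Liver markers were again higher, with 10 of 12 past the test and sums of 243 to 298 CPM against 72 to 97.7 CPM in control libraries. Of 10 smooth muscle markers 2 passed as lower, Myh11 and Actg2, with sums of 5917 to 7336 CPM against 7561 to 12121 CPM. Of the 12 epithelial markers, Cldn4 and Elf3 passed as lower. No marker of these 3 lists was at 0. Their part in the carrier differences was not tested.

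Partner proteins and related pathways were read from 5 gene lists. Of the 14 tested partner subunits and trafficking factors, Slc2a1 rose in tamoxifen against control with edgeR. There 4 were higher and 1 lower at an unadjusted p under 0.05, DESeq2 called 3 higher, and limma-voom called 0, so that the call was lost. In tamoxifen+primidone against tamoxifen 0 passed (4 lower at an unadjusted p under 0.05, 3 lower with DESeq2, 0 with limma-voom), and against control 0 passed (1 lower unadjusted, 0 with DESeq2 or limma-voom). Slc2a1 stood at 35.7, 38.5 and 33.4 CPM in control, 53.2, 89.5 and 61.1 CPM in tamoxifen and 33.3, 44.4 and 35.1 CPM in tamoxifen+primidone libraries (tamoxifen against control 0.92 ± 0.19, edgeR adjusted p = 0.0456). The excluded lactate exporter Slc16a3 had log2 fold changes of 2.62 ± 0.69 (edgeR adjusted p = 0.101) in tamoxifen against control and −1.65 ± 0.66 (0.323) in tamoxifen+primidone against tamoxifen. Slc3a2, a heavy chain of several Slc7a light chains, was nearly level at 0.04, −0.05 and −0.01 in the 3 comparisons. Bsg, the chaperone of Slc16a1, had 0.31 ± 0.12 (edgeR adjusted p = 0.199) in tamoxifen against control and −0.48 ± 0.12 (0.139) in tamoxifen+primidone against tamoxifen.

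Among 18 genes of the amino acid deprivation response, 3 rose and 1 fell in tamoxifen+primidone against control. With edgeR 0 passed in tamoxifen against control (3 higher at an unadjusted p under 0.05, 0 with DESeq2 or limma-voom) or in tamoxifen+primidone against tamoxifen (4 higher and 1 lower unadjusted, 1 of each with DESeq2, 0 with limma-voom). Phgdh, the entry enzyme of serine synthesis, stood at 9.85, 10.3 and 12.9 CPM in control and at 21.9, 24.4 and 20.5 CPM in tamoxifen+primidone libraries (1.01 ± 0.19, edgeR adjusted p = 0.0203). The stress transcription factors Atf5 and Ddit3 rose by 0.44 ± 0.10 and 0.65 ± 0.12, and Ddit4, an inhibitor of growth signalling through mTORC1, fell by 0.76 ± 0.14. Of 14 tested amino acid carriers of other families, Slc1a3, a glutamate carrier, rose in tamoxifen+primidone against control (1.09 ± 0.27, edgeR adjusted p = 0.0466). DESeq2 called 2 of the list higher there and limma-voom 0, so that the call was lost with the latter. In tamoxifen against control 0 of these passed with edgeR, while 7 were higher at an unadjusted p under 0.05, 3 with DESeq2 and 0 with limma-voom. In tamoxifen+primidone against tamoxifen 0 passed with edgeR, DESeq2 or limma-voom and 1 was lower unadjusted. Of the 17 lysosomal amino acid sensing genes and the 6 tonicity genes, 0 passed in any of the 3 comparisons with edgeR, DESeq2 or limma-voom. At an unadjusted p under 0.05, at most 2 of the sensing genes and 1 of the tonicity genes differed in a comparison.

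Some carriers were unevenly spread within groups. Slc7a10, a small neutral amino acid carrier, had 0.359, 0.193 and 1.53 CPM in tamoxifen and 0.569, 1.14 and 0.201 CPM in tamoxifen+primidone libraries. The adipocyte markers summed to 80.6, 48 and 259 CPM and to 105, 323 and 79.6 CPM in the same libraries. Within each of these groups the highest of both was the same library. In control libraries it was not, with Slc7a10 at 0.314, 0.161 and 0.108 CPM and marker sums of 35.2, 41.5 and 39.9 CPM. The part of these markers in the Slc7a10 values was not tested. Slc16a6, whose exons lie opposite those of Amz2 and Arsg, ran from 31.3 to 103 CPM in tamoxifen+primidone libraries. Slc6a16 had 0, 0.165 and 0 CPM in tamoxifen and 0.259, 1.24 and 0.704 CPM in tamoxifen+primidone libraries, too few counts to set a size.

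The 17 untested members reached at most 20 counts in a library and a mean of at most 0.0484 FPKM. They include the liver and islet glucose carrier Slc2a2, the renal glucose carrier Slc5a2, the choline carrier Slc5a7, the dopamine carrier Slc6a3, the GABA carrier Slc6a11 and the intestinal amino acid carriers Slc6a19 and Slc7a9. At this depth these carriers could be neither compared nor called absent.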

How the data were processed

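The submitters' processing notes name build GRCm39 and the tools HISAT2, HTSeq, DESeq2 and R 3.2.0. The annotation, the strandedness and further versions were not given in the sources used here. For 18094 gene symbols the authors deposited raw read counts and, in a second table, FPKM values, which are scaled by gene length and library size.

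Counts were tested with edgeR 4.0.16 in R 4.3.3 (quasi-likelihood test, TMM factors, filterByExpr by group, robust dispersion). All 9 libraries entered 1 fit with a coefficient per group and no covariate. The two-sided p-values were adjusted by Benjamini-Hochberg over 15186 tested genes, with a threshold of 0.05. CPM used TMM-scaled library sizes, and standard errors are approximate, taken as |log2 fold change| over the root of F. Levels between genes used FPKM. Replicate pairs differed beyond counting noise (chi-square per degree of freedom 19.6 to 78.5). Since the labels do not say that each library is 1 animal, p-values measure the spread between these samples. On simulated counts for 15186 genes the procedure recovered 74% to 81% of 2-fold and 95% to 99% of 4-fold changes, over the 3 comparisons. The changes were planted only in better covered genes, with noise that left out each gene's own spread. These shares therefore need not hold for the carriers here, least of all those with few counts. Of the genes called, 2.31% to 7.77% had no planted change. DESeq2 1.42.0 and limma 3.58.1 were alternatives.

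Named carriers were those past the threshold, the 2 with the highest mean FPKM per family and, where fewer than 5 passed, those with the smallest p up to 5. Values of 2 members are not reported here, although both are included in the counts. Other named carriers and the promoters shown were chosen after their values were seen, as was the grouping by substrate. The members and gene lists were chosen with earlier results of these data known. The planned protein sequences were not used here. Exon overlaps came from GENCODE M21 (GRCm38), by symbol. Other cell type lists read were mast cells, macrophages, mesothelium, endothelium, squamous epithelium, erythroid, skeletal muscle, nerve and Schwann cells, and T and NK as well as B and plasma cells.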

Additional observations from a re-analysis of the deposited data

How the results depend on the processing

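The 15 fold changes recomputed, those of carriers past the threshold or with the smallest p in a comparison, kept their sign under each of the 19 alternatives. In tamoxifen against control, where 1 carrier passed, 12 passed with DESeq2, 0 with limma-voom, 3 without the low-count filter, 6 with only the 2 groups in the fit and 5 with the replicate number as a block, and 0 to 5 passed with 1 library left out. In tamoxifen+primidone against control, where 5 passed, 12 passed with DESeq2, 3 with limma-voom, 3 with limma on log2(FPKM + 1), 2 with the same and no filter, and 1 with only the 2 groups, and 1 to 5 passed with 1 library left out. In tamoxifen+primidone against tamoxifen, where 0 passed, 4 passed with DESeq2 and 0 to 1 with 1 library left out, the 1 being Slc5a8 without tamoxifen+primidone 1. That last setting called 62 genes higher and 23 lower over all tested genes. Calls over all genes shifted too. In tamoxifen against control they went from 87 higher and 146 lower to 540 and 603 with DESeq2. They were 96 and 161 without the filter, 226 and 320 with only the 2 groups, and 124 and 193 with the block. With 1 library left out they ran from 9 and 13 without control 1 to 168 and 271 without tamoxifen+primidone 1. In tamoxifen+primidone against control DESeq2 called 884 higher and 1005 lower. Limma-voom called 265 higher and 480 lower there, and the fit of only the 2 groups 250 and 374. Limma on log2(FPKM + 1) called 602 higher and 318 lower, and 463 and 237 with no filter. These limma fits on FPKM thus called more genes higher than lower, the reverse of the main fit. With 1 library left out, calls ran from 41 higher and 81 lower without control 1 to 316 and 484 without tamoxifen 2. The cause of these shifts was not tested. Upper-quartile factors moved the calls over all genes in tamoxifen+primidone against control from 325 higher and 487 lower to 431 and 400. Same-numbered libraries of 2 groups did not deviate together (correlations of −0.134 to 0.177), so the numbers were not taken to pair them. With the block, 5 carriers also passed in tamoxifen+primidone against control, but 3 of them were shared: Slc15a4 (adjusted p = 0.0556) and Slc16a12 (0.0637) were lost and Slc16a1 and Slc6a17 gained. With the block 0 passed in tamoxifen+primidone against tamoxifen. Depth limits the carriers under about 1 CPM most.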

Other observations

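Other cell type lists gave the following values. In tamoxifen+primidone against control, 2 of 10 T and NK cell markers rose (Nkg7 and Il2rb), with sums of 50.5 to 56 CPM against 27 to 32.8 CPM, and 3 of 6 mesothelium markers rose (Msln, Lrrn4 and Wt1). In tamoxifen against control, Il2rb, Msln, the squamous keratin Krt6b and the plasma cell gene Mzb1 rose, while 2 of 6 mast cell markers fell, the proteases Mcpt4 and Tpsb2. In tamoxifen+primidone against control, 1 marker passed as higher among 6 B and plasma cell markers (Mzb1), 6 tested erythroid markers (Hbb-bs), 8 stromal markers (Hand2) and 8 adipocyte markers (Pck1), and 1 as lower among 8 macrophage markers (Cd68). With edgeR, 0 endothelial, nerve and Schwann cell or skeletal muscle markers passed in any of the 3 comparisons, and at most 1 of each list had an unadjusted p under 0.05 in a comparison. DESeq2 called 1 endothelial marker higher in tamoxifen against control, and DESeq2 and limma-voom each called 1 nerve and Schwann cell marker lower in tamoxifen+primidone against control.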
